A study of Arabidopsis thaliana with 4 samples.

Results

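Transcript levels of whole emf2 mutant seedlings of Arabidopsis thaliana were set against those of wild-type seedlings of the Columbia ecotype (WT). The comparison used the 2 arrays whose titles name emf2 and WT and whose seedlings had grown without hygromycin, out of 4 arrays in the series, and all 22746 of their 22810 probe sets that are not hybridization or labelling controls. The emf2 array is labelled as the emf2 mutant background, with the allele and the ecotype of the mutant not given in the labels, and the WT array as the wild type background. Neither of these groups carried a transgene. The other 2 arrays were of rescued emf2 and transWT, the same backgrounds carrying 35S::BoEMF2.1, a Brassica oleracea EMF2 gene behind a constitutive viral promoter, and those seedlings had grown with hygromycin. All seedlings were 7 days old and came from agar plates with 1.5% sucrose, kept at 21 °C with 8 h of light and 16 h of darkness a day. Each group was measured on 1 Affymetrix array, so no difference between emf2 and WT has a replicate check or a test, and all counts below describe these 2 arrays. How many seedlings were pooled for an array is not given in the labels.

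EMF2 encodes a zinc-finger subunit of Polycomb repressive complex 2, which places methyl groups on lysine 27 of histone H3 and so keeps sets of genes silent through cell division. In Arabidopsis the complex that holds EMF2 is known for keeping flower genes off in seedlings, and mutants that lack EMF2 pass over normal leaf growth and form small flower-like shoots soon after germination. Chloroplasts, to which many of the genes below belong, carry a small genome of their own but import most of their proteins from nuclear genes.

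The signal of a probe set is its brightness on a linear scale, and signals under 87.6, the 40th percentile over the 4 arrays, were treated as a floor. A gene with only 1 array above the floor has a bound for its ratio, written as at least N-fold, and a gene with neither array above it was not measured. Of 14653 probe sets measured, 18.5% differed by at least 2-fold, 1076 (7.34%) with higher signal in emf2 and 1633 (11.1%) with lower, so that 39.7% of these differences were toward higher signal. That split depended on the scaling of the arrays: with each array scaled to the same median, 1602 were higher and 1163 lower (57.9% higher), and the median log2 ratio of all named genes was 0.16, against -0.03 with the scaling used here, 0.05 after cyclic loess and 0.07 after quantile normalization. Log2 ratios below should be read relative to that shift. Where 50 genes had a pair of probe sets with both arrays above the floor, the probe sets disagreed by an error of 0.33 in the log2 ratio, and 2 of the 50 genes differed by at least 1 between their probe sets. This error holds no variation between plantings. The 41 control probe sets above the floor had a median log2 ratio of 0.05 and lay between -0.28 and 0.50, none of them 2-fold apart. No probe set is named for EMF2 here, and its signal was not used to check the genotype.

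Both arrays carried transcripts of green tissue and of root. RCA, which encodes the activase of Rubisco, read 12239 in emf2 and 16006 in WT. PYK10, a beta-glucosidase of root and hypocotyl cells, read 16103 in emf2 and 15178 in WT. The 1 named marker of pollen, AMS, and the 1 of seed storage, PAP85, at 20.2 in emf2 and 7.30 in WT, lay below the floor on both arrays. Of the carpel and ovule markers INO and SPL were below it too, while SPT read 206 in emf2 and 147 in WT. The fourth of them that is named, ALC, a gene of fruit opening, read 461 in emf2 and 65.0 in WT (at least 5.27-fold higher). RNA came from whole seedlings, in which fewer cells of a type and less RNA per cell cannot be told apart.

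**Figure D1:**
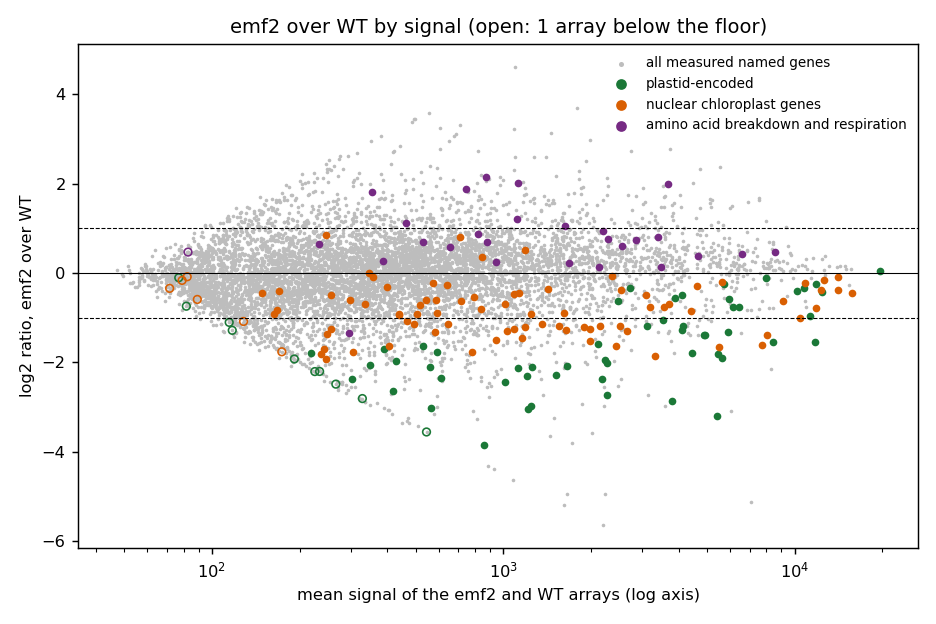
Log2 ratio of emf2 over WT (vertical axis) against the mean signal of both arrays (horizontal, log axis) for each measured named gene, with open symbols where 1 array lies below the floor and dashed lines at 2-fold. Plastid-encoded genes and nuclear genes of the chloroplast lie mostly below 0, with medians of -1.78 and -0.80, and genes of amino acid and fatty acid breakdown and respiration mostly above it, with a median of 0.69.

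Transcripts of the plastid genome were lower in emf2, and by unequal amounts from one gene cluster to the next. Plastid genes are transcribed in long units that hold several genes, so their values are not independent of each other. Of the 64 measured genes 47 were past 2-fold downward in emf2, as were 10.7% of all 7836 named genes measured, and 0 were past it upward, as were 7.08% of all. In the cluster of ribosomal protein genes all 7 measured members were at least 2-fold lower, with a median log2 ratio of -2.87. Within it rps19 read 913 in emf2 and 6657 in WT (7.30-fold lower). rpl22 read 1060 in emf2 and 9792 in WT (9.24-fold lower). rpl36 read 592 in emf2 and 3939 in WT (6.65-fold lower). The same cluster ends in rpoA, a subunit of the plastid's own RNA polymerase, which read 1917 in emf2 and 4325 in WT (2.26-fold lower). The atpI cluster, which encodes subunits of the ATP synthase behind rps2, had all 5 members at least 2-fold lower. There rps2 read 263 in emf2 and 2174 in WT (8.27-fold lower). atpF read 704 in emf2 and 3656 in WT (5.20-fold lower). atpA read 2420 in emf2 and 8490 in WT (3.51-fold lower). The paired genes atpB and atpE differed alike: atpB read 6020 in emf2 and 17451 in WT (2.90-fold lower) and atpE 4285 in emf2 and 12573 in WT (2.93-fold lower).

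Other clusters were split. In the psbB cluster, psbB, which encodes the CP47 antenna of photosystem II, read 125 in emf2 and 1003 in WT (8.05-fold lower). psbT, a small subunit beside it, read 43.9 in emf2 and 613 in WT (at least 7.00-fold lower). Farther along the cluster, psbH read 3379 in emf2 and 8389 in WT (2.48-fold lower). petB, which encodes cytochrome b6, read 10615 in emf2 and 14176 in WT (1.34-fold lower). The psbE cluster stood at the other end: psbE, psbF, psbL and psbJ, of which the first pair encode cytochrome b559, had log2 ratios between -0.33 and -0.12, and none was 2-fold lower. The pair psbK and psbI was also within 2-fold, at -0.59 and -0.49. In the ndhC cluster, ndhC of the NDH complex of cyclic electron flow read 5223 in emf2 and 6187 in WT, whereas its neighbour ndhK read 135 in emf2 and 561 in WT (4.15-fold lower). The ndhH cluster had 6 of 7 members at least 2-fold lower, from ndhH, at 116 in emf2 and 722 in WT (6.24-fold lower), to ndhD, at 2515 in emf2 and 5733 in WT (2.28-fold lower). With the arrays scaled to the same median, ndhD, rpoA, psbZ and rpl20 lay within 2-fold. Of 63 measured plastid genes 43 were then at least 2-fold lower, against 7.67% of all named genes. After cyclic loess and quantile normalization of all 4 arrays rpl20 was within 2-fold as well.

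Ratios were also wide within a complex. Photosystem II held psbD, the D2 reaction centre protein, at 98.7 in emf2 and 509 in WT (5.15-fold lower), and psbM, a small subunit, at 19919 in emf2 and 19404 in WT. Ribosomal proteins of the large subunit reached from rpl16 to rpl33, at 8744 in emf2 and 11631 in WT (1.33-fold lower). Genes outside these complexes were lower as well. Of these accD, a subunit of acetyl-CoA carboxylase, read 211 in emf2 and 907 in WT (4.31-fold lower). clpP, a protease subunit, read 2727 in emf2 and 7086 in WT (2.60-fold lower). matK, an intron maturase, read 4577 in emf2 and 7711 in WT (1.68-fold lower). The size of the difference went with signal. The 32 plastid genes of lower mean signal had a median log2 ratio of -2.16, with 30 of them at least 2-fold lower, and the 32 of higher mean signal a median of -1.11, with 17 at least 2-fold lower. Nuclear genes in the same ranges of signal had medians of -0.05 and 0.18, and the part of signal in the plastid values was not tested. Of 16 named mitochondrial genes 4 were measured, and all 4 lay within 2-fold, with cox1, a subunit of cytochrome oxidase, at 165 in emf2 and 158 in WT.

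**Figure D2:**
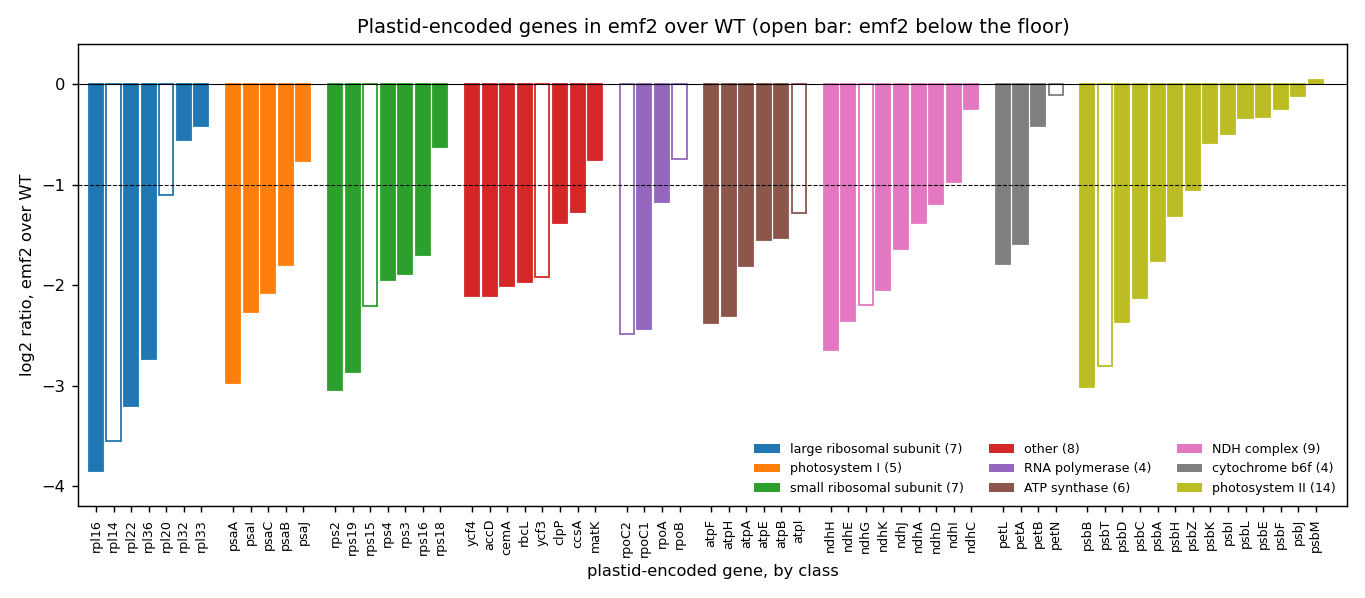
Log2 ratio of emf2 over WT for the 64 measured plastid-encoded genes, grouped by complex, with open bars where emf2 lies below the floor and a dashed line at 2-fold lower. Bars reach from rpl16, at -3.85, to psbM, at 0.04, and photosystem II spans -3.01 to 0.04.

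Nuclear genes whose products work in the chloroplast were also mostly lower in emf2, by less. The list holds 90 such genes, chosen by what their symbols stand for, of which 87 were measured, 83 with a log2 ratio below 0. In it 34 were past 2-fold downward and 0 upward, against 10.7% and 7.08% of all named genes. The median log2 ratio was -0.80, against -0.03 for all named genes. Factors that act in expressing the plastid genome differed among themselves. FUG1, the initiation factor of plastid translation, read 1441 in emf2 and 5210 in WT (3.62-fold lower). CFM3A, which takes part in splicing plastid introns, read 102 in emf2 and 391 in WT (3.82-fold lower). RH39, an RNA helicase of plastid ribosomal RNA, read 139 in emf2 and 471 in WT (3.40-fold lower). ATAB2, needed to translate photosystem proteins, read 649 in emf2 and 1536 in WT (2.37-fold lower). Other such factors lay within 2-fold, with log2 ratios of -0.59 for CFM3B, a relative of CFM3A, -0.44 for OTP81 and -0.08 for CRR22, the first and last of them bounds. In the stroma, the chaperonin subunit Cpn60beta2 read 951 in emf2 and 2163 in WT (2.27-fold lower), and its relative Cpn60beta3 read 951 in emf2 and 743 in WT.

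The listed nuclear subunits of the photosystems and their antennae lay within 2-fold, apart from PSBY of photosystem II (2.01-fold lower). PSBY was within 2-fold too with the arrays scaled to the same median and after quantile normalization of the emf2 and WT arrays alone. Subunits whose genes have no symbol here are not in the list. LHCB4.1, an antenna protein of photosystem II, read 13343 in emf2 and 18116 in WT (1.36-fold lower). PSAN of photosystem I read 11908 in emf2 and 13327 in WT (1.12-fold lower). ATPC1, the gamma subunit of the ATP synthase, read 10687 in emf2 and 13948 in WT (1.31-fold lower). Proteins that assemble and repair the photosystems lay lower: all 7 measured had log2 ratios below 0, with a median of -0.89 and 2 at least 2-fold lower. Among them LPA66, an editing factor of plastid RNA, read 139 in emf2 and 357 in WT (2.58-fold lower) and LPA1, an assembly factor, 353 in emf2 and 663 in WT (1.88-fold lower). Nuclear subunits and assembly factors of the NDH complex had 6 of 11 at least 2-fold lower and a median of -1.27. Of all named genes 10.7% were at least 2-fold lower. The subunits NdhN, at 355 in emf2 and 1212 in WT (3.42-fold lower), NdhS, at 1197 in emf2 and 3695 in WT (3.09-fold lower), and NdhL, at 960 in emf2 and 2313 in WT (2.41-fold lower), were all past 2-fold. So was CRR21, an editing factor for a plastid NDH transcript, at 198 in emf2 and 615 in WT (log2 ratio -1.63).

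Chlorophyll synthesis had 4 of 10 measured genes at least 2-fold lower, against 10.7% of all named genes, with a median log2 ratio of -0.81. PORB, which reduces protochlorophyllide in the light, read 3820 in emf2 and 11619 in WT (3.04-fold lower). HEME1, a uroporphyrinogen decarboxylase, read 1026 in emf2 and 2934 in WT (2.86-fold lower), while the other gene of that enzyme, HEME2, read 2374 in emf2 and 4009 in WT (1.69-fold lower). CHLI2, a subunit of magnesium chelatase, read 718 in emf2 and 1663 in WT (2.32-fold lower). HEMA2, a glutamyl-tRNA reductase at the start of the pathway, was the one member above 0, at 394 in emf2 and 317 in WT. The ascorbate peroxidases of the plastid lay on opposite sides of 0. TAPX, the ascorbate peroxidase of thylakoids, read 624 in emf2 and 1696 in WT (2.72-fold lower). SAPX, that of the stroma, read 1398 in emf2 and 974 in WT (1.44-fold higher). NTRC, a thioredoxin reductase of plastids, read 491 in emf2 and 1390 in WT (2.83-fold lower). Of the thioredoxins y, ty2 read 1175 in emf2 and 2791 in WT (2.38-fold lower). TY1 read 317 in emf2 and 175 in WT (1.81-fold higher), which passed 2-fold after quantile normalization and with the arrays scaled to the same median. In leaf carbohydrate metabolism all 7 measured genes were below 0. ATSPS4F, a sucrose phosphate synthase, read 126 in emf2 and 599 in WT (4.77-fold lower). SBE2.2, a starch branching enzyme, read 599 in emf2 and 1461 in WT (2.44-fold lower). With the arrays scaled to the same median, 24 of 86 genes of the whole list were past 2-fold downward and 2 upward. The shares of all named genes were then 7.67% downward and 10.8% upward. Cpn60beta2 lay within 2-fold with that scaling.

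Most transcripts of enzymes that break down amino acids and fatty acids and of mitochondrial respiration had log2 ratios above 0, most of them within 2-fold. Of 28 measured genes 27 had a log2 ratio above 0, 8 of them past 2-fold, and 1 was past it downward. The median was 0.69. Of all named genes 7.08% were past 2-fold upward and 10.7% downward. IVD, isovaleryl-CoA dehydrogenase of leucine breakdown, read 1428 in emf2 and 322 in WT (4.43-fold higher). MCCA, the biotin-carrying subunit of methylcrotonyl-CoA carboxylase, read 1168 in emf2 and 318 in WT (3.67-fold higher). MCCB, the other subunit of that enzyme, read 1091 in emf2 and 674 in WT (1.62-fold higher), at the median of the group. DELTA-OAT, ornithine aminotransferase, read 632 in emf2 and 292 in WT (2.16-fold higher). ICL, the isocitrate lyase of the glyoxylate cycle, read 1800 in emf2 and 445 in WT (4.05-fold higher). PPDK, pyruvate orthophosphate dikinase, read 552 in emf2 and 158 in WT (3.49-fold higher). ALDH7B4, an aldehyde dehydrogenase, read 5896 in emf2 and 1477 in WT (3.99-fold higher).

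Respiratory subunits differed less. The iron-sulphur subunits of succinate dehydrogenase SDH2-1, at 4339 in emf2 and 2479 in WT (1.75-fold higher), and SDH2-2, at 2204 in emf2 and 1064 in WT (2.07-fold higher), lay above the flavoprotein subunit SDH1-1, at 1822 in emf2 and 1549 in WT (1.18-fold higher), in ratio. Cytochrome c was higher by 1.39-fold for CYTC-1 and 1.69-fold for CYTC-2. The alternative NAD(P)H dehydrogenases went opposite ways. NDB2 read 1560 in emf2 and 677 in WT (2.30-fold higher). NDB1 read 168 in emf2 and 425 in WT (2.52-fold lower), the one member below 0. Most autophagy genes lay above 0 too. ATG8, the ubiquitin-like protein that coats autophagosomes, is encoded by a small family, and all 9 of its members measured under the names ATG8 or APG8 had ratios above 0. ATG8B read 1014 in emf2 and 310 in WT (3.27-fold higher). ATG8D read 1041 in emf2 and 350 in WT (2.98-fold higher). ATG8F read 6226 in emf2 and 3188 in WT (1.95-fold higher). ATG3, the enzyme that attaches ATG8 to lipid, read 842 in emf2 and 847 in WT. Of the 10 autophagy genes 2 were at least 2-fold higher, against 7.08% of all named genes. With the arrays scaled to the same median 6 were, against 10.8% of all named genes. Of 9 measured genes of vacuolar processing and senescence 1 was past 2-fold upward and 1 downward, 11.1% each way, near the 7.08% and 10.7% of all named genes. YLS5, named for yellowing leaves, read 1372 in emf2 and 446 in WT (3.08-fold higher). CP1, a cysteine protease, read 118 in emf2 and 263 in WT (2.22-fold lower) and was within 2-fold under 3 of the 4 other scalings. GAMMA-VPE, a vacuolar processing enzyme, read 3817 in emf2 and 2606 in WT (1.46-fold higher). SAG101, a senescence gene, read 92.9 in emf2 and 152 in WT (1.63-fold lower).

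**Figure D3:**
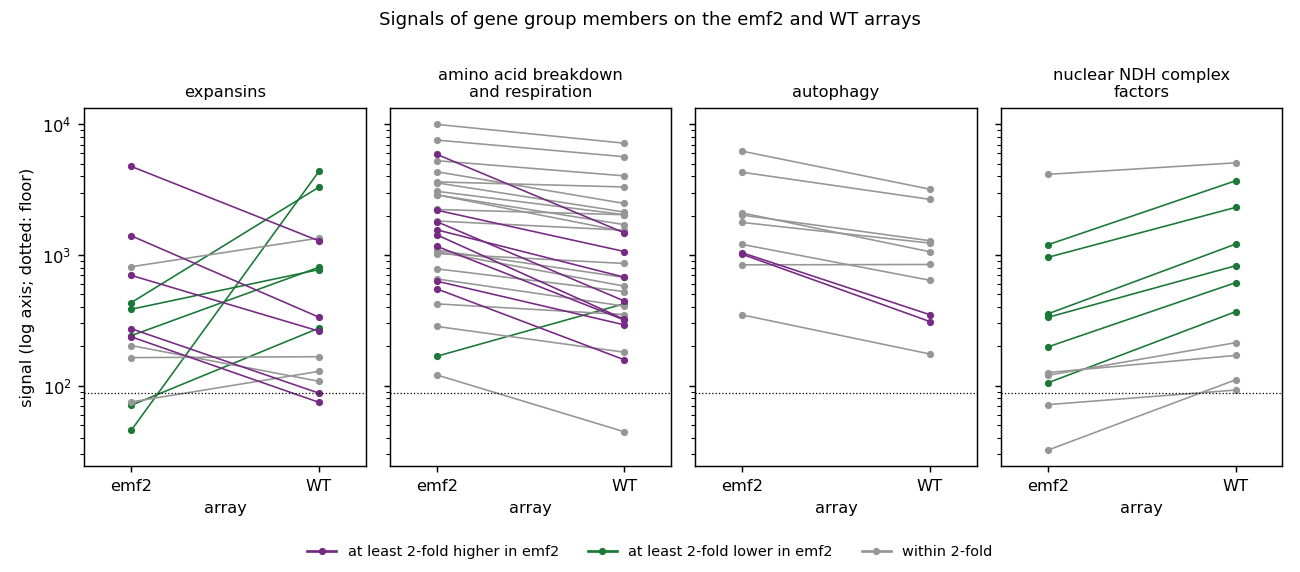
Signal (log axis) of each measured member of 4 gene groups on the emf2 array, left, and the WT array, right, joined by a line and coloured by whether the gene was at least 2-fold higher or lower in emf2. Expansins cross in both directions, while 27 of 28 genes of amino acid and fatty acid breakdown and respiration slope down toward WT and all 11 nuclear NDH genes slope up toward it.

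Genes that remodel the cell wall differed in both directions within single families. Expansins loosen the bonds between wall polymers as cells grow, and 10 of the 14 measured were at least 2-fold apart, against 17.8% of all named genes, with 5 higher and 5 lower in emf2. Besides EXPA8, at 45.6 in emf2 and 4363 in WT, the lower members were EXPB3, at 432 in emf2 and 3307 in WT (7.65-fold lower), EXPA15, at 242 in emf2 and 807 in WT (3.34-fold lower), EXPB1, at 71.0 in emf2 and 276 in WT (at least 3.15-fold lower), and EXPA9, at 385 in emf2 and 774 in WT (2.01-fold lower). EXPA9 lay within 2-fold under all 4 other scalings. EXPA16 (log2 ratio 0.91) passed 2-fold upward under all 4, so that 6 expansins were higher and 4 lower there. With the scaling used here all 5 higher members were expansins A or expansin-like proteins A. Besides the root hair genes EXPA7 and EXPA18 they were EXLA1, at 4764 in emf2 and 1284 in WT (3.71-fold higher), EXLA2, at 274 in emf2 and 87.9 in WT (3.11-fold higher), and EXPA20, at 237 in emf2 and 74.8 in WT (at least 2.71-fold higher). Of 14 root hair markers only EXPA7 and EXPA18 are named here, with summed signals of 2103 in emf2 and 597 in WT, and the part of root hair number in the expansin values was not tested. CSLD2, a cellulose synthase-like gene that root hairs also need, read 1157 in emf2 and 728 in WT (1.59-fold higher). SCN1, a regulator of where hairs form, read 1497 in emf2 and 1303 in WT.

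Endoglucanases of family GH9, which cut glucans of the wall, had 3 of 6 measured members at least 2-fold lower, against 10.7% of all named genes. GH9C2 read 499 in emf2 and 3917 in WT (7.85-fold lower). GH9B8 read 130 in emf2 and 595 in WT (4.57-fold lower). GH9B7 read 1288 in emf2 and 2991 in WT (2.32-fold lower). GH9C1 went the other way, at 795 in emf2 and 360 in WT (2.21-fold higher). Xyloglucan endotransglucosylases, which cut and rejoin xyloglucan, had 2 of 8 past 2-fold, both upward, against 7.08% of all named genes upward. These were XTH26, at 743 in emf2 and 176 in WT (4.23-fold higher), and EXGT-A3, at 4596 in emf2 and 2034 in WT (2.26-fold higher). XTH19 read 1804 in emf2 and 1952 in WT. The CSLC synthases of the xyloglucan backbone lay below 0 in all 4 measured members, with CSLC5 at 279 in emf2 and 735 in WT (2.64-fold lower). In the TBL family, to which acetyltransferases of wall polysaccharides belong, TBL38, at 965 in emf2 and 306 in WT (3.15-fold higher), and its relative TBL39, at 878 in emf2 and 356 in WT (2.47-fold higher), stood against TBL45, at 229.9 in emf2 and 902 in WT (3.92-fold lower). The other 13 measured TBL genes lay within 2-fold.

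The IQD and NET families, both tied to the cytoskeleton, had members past 2-fold downward only. Of all named genes 10.7% were past it downward and 7.08% upward. IQD proteins bind calmodulin and many sit on microtubules, and 9 of the 10 measured had log2 ratios below 0, with 4 at least 2-fold lower and a median of -0.96. IQD31 read 296 in emf2 and 1205 in WT (4.08-fold lower). IQD22 read 204 in emf2 and 549 in WT (2.69-fold lower). iqd21 read 84.3 in emf2 and 514 in WT (at least 5.87-fold lower). IQD30, at 303 in emf2 and 621 in WT (2.05-fold lower), was within 2-fold under all 4 other scalings. Among the actin-binding NET proteins NET1B read 99.5 in emf2 and 404 in WT (4.06-fold lower) and NET4B 370.1 in emf2 and 1059 in WT (2.86-fold lower), the only ones of 5 measured past 2-fold. The 7 tubulin genes lay within 2-fold, TUB5, at 2090 in emf2 and 4064 in WT (1.94-fold lower), and TUB1, at 1991 in emf2 and 1220 in WT (1.63-fold higher), being farthest apart. TUB5 passed 2-fold after quantile normalization and cyclic loess.

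Of 29 measured genes of DNA replication, repair and chromatin 22 were below 0, with 4 past 2-fold, and 2 were past it upward. These 13.8% and 6.90% are near the 10.7% and 7.08% of all named genes. With the floor at the 25th percentile 11 of 43 (25.6%) were past 2-fold downward, against 12.5% of all named genes. The median with the floor used here was -0.45. PRL, which encodes the MCM7 subunit of the replicative helicase, read 201 in emf2 and 585 in WT (2.91-fold lower). CHR17, a chromatin remodeller of the ISWI class, read 157 in emf2 and 428 in WT (2.73-fold lower). HIS1-3, a linker histone that responds to drought, read 564 in emf2 and 65.3 in WT (at least 6.44-fold higher). The H2B histones HTB1, at 821 in emf2 and 1167 in WT, and HTB4, at 3345 in emf2 and 3614 in WT, lay within 2-fold. So did the 9 measured genes of mitosis, with the kinase AUR1 at 194 in emf2 and 209 in WT and the mitotic checkpoint gene BUB3.1 at 318 in emf2 and 339.5 in WT.

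**Figure D4:**
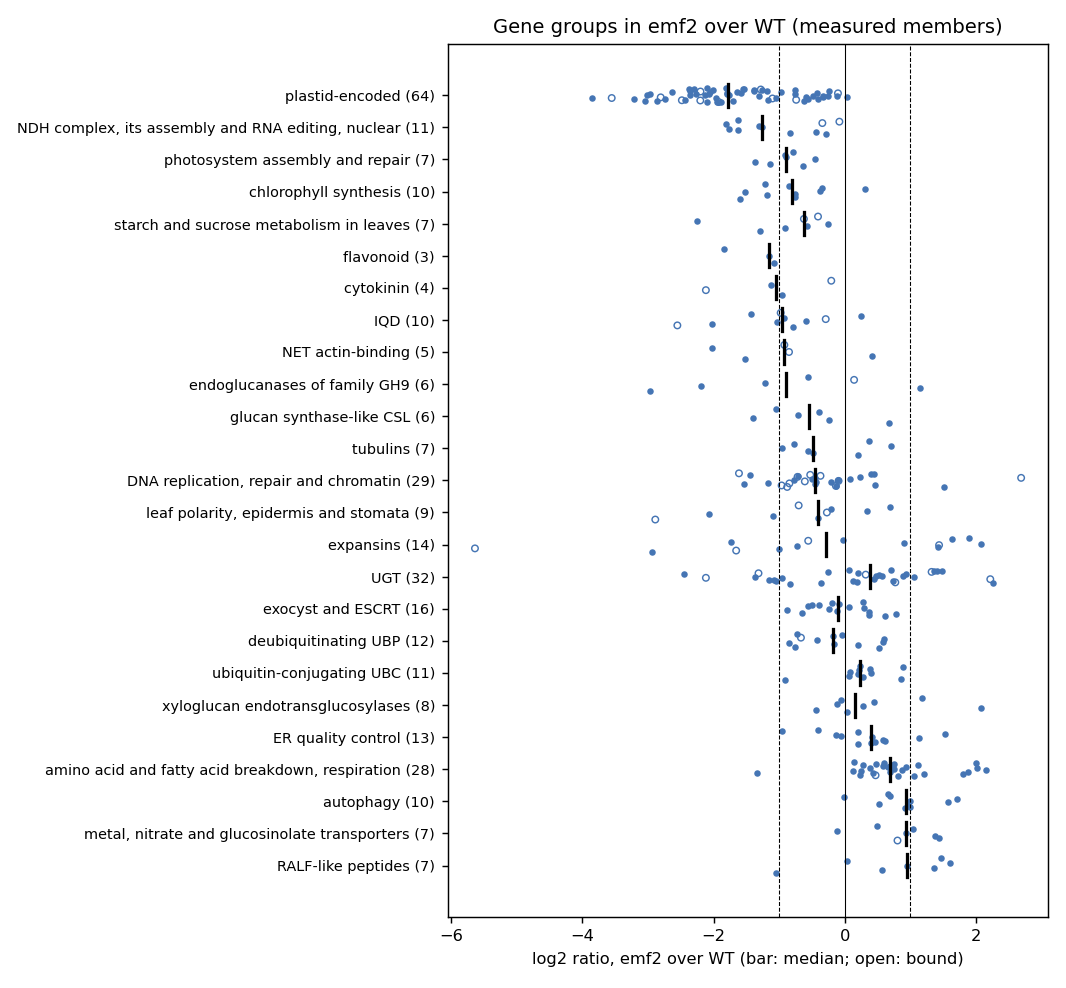
Log2 ratios of emf2 over WT for the measured members of 25 gene groups, 1 symbol per gene with the number of genes in brackets, the group median as a bar, open symbols for bounds and dashed lines at 2-fold. Chloroplast groups lie to the left, autophagy, transporters and RALF peptides to the right with medians of 0.94, 0.93 and 0.95, and expansins and UGT genes spread to both sides.

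Regulators of leaf and flower were measured in small number, and the best-known floral targets of the complex, for which no probe set is named, were not analysed here. Flowering and floral genes had 14 of 25 measured, with ALC and ULT1 past 2-fold upward and SMZ and SNZ downward. These are 14.3% each way, against 7.08% upward and 10.7% downward of all named genes. The rest lay within 2-fold. SEU, a corepressor of floral genes, read 239.6 in emf2 and 367 in WT (1.53-fold lower). FY, an RNA processing factor of the autonomous flowering pathway, read 114 in emf2 and 168 in WT (1.47-fold lower). ATC, a relative of TFL1, read 502 in emf2 and 305 in WT (1.65-fold higher). The floral growth genes SHI, PTL and BPEp were above the floor in emf2 alone: SHI at 170.3 in emf2 and 51.3 in WT, PTL at 132 in emf2 and 49.2 in WT, and BPEp at 95.1 in emf2 and 42.5 in WT. Their bounds of 1.94, 1.50 and 1.09-fold lay under 2-fold, and SHI passed it under 3 of the 4 other scalings. Of 17 genes of meiosis, pollen and the female gametophyte 16 were below the floor on both arrays, and ROXY2 read 98.4 in emf2 and 137 in WT. Of 11 genes of late embryogenesis and seed, HIS1-3 and LEA4-5 were measured. LEA4-5, a protective protein of drying tissue, read 906 in emf2 and 69.2 in WT (at least 10.3-fold higher).

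Genes of leaf polarity and stomata were lower or little different. YAB5 read 21.1 in emf2 and 649 in WT, and its relative YAB3, which also marks the lower leaf side, 148 in emf2 and 198 in WT (1.33-fold lower). PHV, an upper-side gene of the HD-ZIP class, read 200.2 in emf2 and 159 in WT (1.26-fold higher). In the stomatal lineage SPCH, which starts it, read 6.70 in emf2 and 106 in WT (at least 1.21-fold lower). FMA, which ends it in guard cells, read 48.3 in emf2 and 143 in WT (at least 1.63-fold lower). STOMAGEN read 236 in emf2 and 985 in WT. MUTE, which acts between SPCH and FMA, was below the floor on both arrays. Of 10 markers of guard cells and their lineage 4 are named, with 3 below the floor in emf2 and 1 in WT. TCP15, a growth regulator of the TCP family, read 134 in emf2 and 287 in WT (2.13-fold lower), a difference within 2-fold under all 4 other scalings.

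Among genes listed for auxin, cytokinin and gibberellin, none of the 11, 4 and 5 measured was at least 2-fold higher, against 7.08% of all named genes. No list was drawn for other hormones. WAG2, a kinase that acts on auxin transporters, read 76.0 in emf2 and 293 in WT (at least 3.34-fold lower). UGT74D1, which joins glucose to auxins, read 440.3 in emf2 and 1139 in WT (2.59-fold lower). GH3.3, which joins auxin to amino acids, read 64.1 in emf2 and 173 in WT (at least 1.97-fold lower). Of the 4 measured genes of cytokinin response and conjugation all were below 0. They included the cytokinin N-glucosyltransferases UGT76C1, at 51.1 in emf2 and 380.3 in WT (at least 4.34-fold lower), and UGT76C2, at 326 in emf2 and 633 in WT (1.94-fold lower). The 3 gibberellin receptor genes lay within 2-fold, GID1B at 446 in emf2 and 285 in WT (1.57-fold higher), GID1A at 1448 in emf2 and 1165 in WT, and GID1C at 268 in emf2 and 299 in WT. In the bZIP family of transcription factors bZIP44 read 1521 in emf2 and 519 in WT (2.93-fold higher). BZIP17, a membrane-bound factor of endoplasmic reticulum stress, read 279 in emf2 and 96.5 in WT (2.89-fold higher). BZIP61 read 54.0 in emf2 and 349 in WT (at least 3.98-fold lower). The other stress factors of the reticulum, BZIP28, at 639.6 in emf2 and 702 in WT, and BZIP60, at 1990 in emf2 and 2083 in WT, did not follow BZIP17 past 2-fold.

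Enzymes of secondary metabolism went both ways. Of 32 measured UGT genes, which join sugars to small molecules, 7 were past 2-fold in each direction. Of all named genes 7.08% were past it upward and 10.7% downward. The even split depended on scaling: with the arrays scaled to the same median 9 were past it upward and 4 downward, and after quantile normalization of the emf2 and WT arrays alone 8 and 4. The lower included UGT72E1, which acts on lignin precursors, at 274 in emf2 and 1506 in WT (5.49-fold lower). UGT87A2, at 866 in emf2 and 181 in WT (4.79-fold higher), and UGT76E12, at 407 in emf2 and 1.30 in WT (at least 4.65-fold higher), led the other side, followed by the neighbouring genes UGT71C2, at 290.3 in emf2 and 104 in WT (2.79-fold higher), and UGT71C1, at 614 in emf2 and 232 in WT (2.65-fold higher). The sequences of such relatives were not compared here, so shared hybridization was not tested. The flavonoid genes measured were all at least 2-fold lower: CHIL, a chalcone isomerase-like protein, at 111 in emf2 and 399 in WT (3.60-fold lower), and the flavonol glycosyltransferases UGT78D1, at 154 in emf2 and 344 in WT (2.24-fold lower), and UGT78D2, at 199.5 in emf2 and 422 in WT (2.12-fold lower). With the arrays scaled to the same median only CHIL of these 3 was past 2-fold. Beta-glucosidases had BGLU45, at 1049 in emf2 and 65.5 in WT, and BGLU15, at 1239.7 in emf2 and 350 in WT (3.55-fold higher), past 2-fold upward, with BGLU33 at 46.6 in emf2 and 294 in WT (at least 3.35-fold lower). Serine carboxypeptidase-like genes were led by scpl31, at 439 in emf2 and 68.1 in WT (at least 5.01-fold higher), and SCPL34, at 2245 in emf2 and 719 in WT (3.12-fold higher). Their lower members were scpl25, at 627 in emf2 and 1679 in WT (2.68-fold lower), and scpl46, at 89.9 in emf2 and 218 in WT (2.42-fold lower).

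Defense proteins had 4 of 13 measured members past 2-fold upward and 1 downward, against 7.08% and 10.7% of all named genes. Prx37, a class III peroxidase, read 3527 in emf2 and 449.5 in WT (7.85-fold higher). OSM34, an osmotin-like protein, read 5629 in emf2 and 1976 in WT (2.85-fold higher). CHI, here a chitinase, read 621 in emf2 and 204 in WT (3.05-fold higher). ECS1, a cell wall protein, read 2596 in emf2 and 6752 in WT (2.60-fold lower). Of the defensin family, PDF2.1 was past 2-fold upward (log2 ratio 1.05), and PDF2.5 and LCR69 were within 2-fold. In the group for cold and water deficit 3 of 11 measured genes were past 2-fold upward, LEA4-5, COR27 at 1212 in emf2 and 146 in WT, and COR15A, and 1 downward, COR15B, against 7.08% and 10.7% of all named genes. The others lay within 2-fold. DI21, induced by drought, read 1712 in emf2 and 935 in WT (1.83-fold higher). LTI30, a dehydrin, read 7215 in emf2 and 6232 in WT. Methionine sulfoxide reductases of type B, which repair oxidised proteins, lay far apart. MSRB6 read 104 in emf2 and 3214 in WT. MSRB9 read 3680.4 in emf2 and 849.7 in WT (4.33-fold higher).

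RALF peptides and carriers had more members past 2-fold upward than downward. RALF peptides signal through receptor kinases at the cell surface, and of 7 measured 3 were past 2-fold upward and 1 downward, with a median of 0.95. The shares of all named genes were 7.08% upward and 10.7% downward. RALFL22 read 5982 in emf2 and 2164 in WT (2.76-fold higher). RALFL32 read 2617 in emf2 and 1024 in WT (2.56-fold higher). RALFL34, a peptide of early lateral roots, read 1712 in emf2 and 3527 in WT (2.06-fold lower), which was within 2-fold with the arrays scaled to the same median. Measured carriers of metals, glucosinolates and organic cations had 3 of 7 at least 2-fold higher. ZIP6, of a family of metal carriers, read 400.0 in emf2 and 148 in WT (2.70-fold higher). The glucosinolate importer GTR2 read 2726 in emf2 and 1331 in WT (2.05-fold higher). The other was OCT5, named as an organic cation carrier (log2 ratio 1.38), while its relative OCT4 lay within 2-fold (0.93). GTR2 lay within 2-fold after cyclic loess and after quantile normalization of the emf2 and WT arrays alone. SWEET1, a glucose carrier, read 2234 in emf2 and 751 in WT (2.98-fold higher). SWEET11, which exports sucrose from leaf veins, read 1547 in emf2 and 2296 in WT (1.48-fold lower). Of the calmodulin-like genes CML42 read 1268 in emf2 and 383 in WT (3.31-fold higher) and CML43 518 in emf2 and 131 in WT (3.95-fold higher). CML38 read 2630.5 in emf2 and 2649 in WT. Tetraspanins other than TET9 lay within 2-fold, TET6 the nearest to it at 415 in emf2 and 212 in WT (1.96-fold higher).

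Several families of basic cell functions showed little difference. Of all named genes 17.8% were at least 2-fold apart. None of 11 ubiquitin-conjugating enzymes, 12 deubiquitinating enzymes of the UBP type and 16 subunits of the exocyst and ESCRT complexes was 2-fold apart. Their log2 ratios lay between -0.91 and 0.89, between -0.85 and 0.60, and between -0.88 and 0.77. Subunits of the nuclear RNA polymerases had 1 of 11 past 2-fold, NRPA1, the largest subunit of RNA polymerase I, at 110.3 in emf2 and 263 in WT (2.39-fold lower). That share of 9.09% is near the 10.7% of all named genes past 2-fold downward. With the arrays scaled to the same median, UBC18 and UBC32 of the conjugating enzymes passed 2-fold upward.

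Of the genes farthest apart on both arrays, few carry a name other than their locus code. The 20 highest lay between 6.03-fold and 12.9-fold, and 3 of them have a symbol: Prx37, COR27 and FMO, a flavin-containing monooxygenase at 1882 in emf2 and 311 in WT (6.05-fold higher). The 20 lowest lay between 7.84-fold and 34.6-fold, of which 5 are plastid genes. Beside MSRB6 and GH9C2 these were rpl16, at 112 in emf2 and 1611 in WT (14.4-fold lower), rpl22, rps2, psbB and psaA, the last a core protein of photosystem I at 281 in emf2 and 2207 in WT (7.86-fold lower). By chromosome, the median log2 ratio of nuclear genes lay between -0.04 on chromosomes 3 and 5 and 0.00 on chromosome 4, and 5.51% to 7.92% of genes were at least 2-fold higher.

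Neighbouring genes were compared in the gene order of the TAIR10.1 assembly. In 2512 pairs of adjacent genes that were both measured, 24 pairs were both at least 2-fold higher in emf2, 26 both lower and 32 opposite. Of the neighbours of higher genes 13.9% were higher, against 6.87% of all neighbours, and of the neighbours of lower genes 10.0% were lower, against 10.3% of all. The longest run of lower genes was 4 on chromosome 1, with CRR41, an assembly factor of the NDH complex, at 105 in emf2 and 369 in WT (3.50-fold lower), between AT1G51090 (at least 4.02-fold lower) and AT1G51110 (3.55-fold lower). A run of 3 higher genes, AT1G65490, AT1G65500 and AT1G65510, had log2 ratios of 2.96, 2.32 and 1.28, the second of them a bound. Adjacent genes are often copies of each other, and the part of shared hybridization in these pairs was not tested.

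The pair rescued emf2 and transWT shares no array with emf2 and WT and compares the same backgrounds, both with the transgene and hygromycin. Differences there were fewer, with 165 of 7582 named genes (2.18%) past 2-fold upward and 238 (3.14%) downward in rescued emf2 against transWT. Of 527 genes past 2-fold upward in emf2 against WT and measured in both pairs, 97 (18.4%) were past it upward in rescued emf2 too, 1 was lower, and 472 had a log2 ratio above 0. Of 816 lower genes 169 (20.7%) were also lower and 731 were below 0. Of the 7329 genes measured in both pairs 2.22% were higher and 3.15% lower in rescued emf2. In emf2 against WT 1.06% of all measured genes were past 4-fold upward and 1.88% downward, and for these differences the shares past 2-fold in the second pair were 49.4% of 81 higher and 56.6% of 145 lower genes.

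Gene groups differed in how much of the difference was present in the second pair. Plastid-encoded genes had a median log2 ratio of -1.78 in emf2 over WT and -0.76 in rescued emf2 over transWT, and nuclear chloroplast genes -0.80 and -0.35. The psbB end of its cluster was low in both pairs. In the second, psbB read 127 in rescued emf2 and 1145 in transWT (9.03-fold lower). psbT read 58.9 in rescued emf2 and 527 in transWT (at least 6.01-fold lower). Genes of amino acid and fatty acid breakdown and respiration had medians of 0.69 and 0.51, with IVD at 2617 in rescued emf2 and 1021 in transWT (2.56-fold higher). ICL of the same group read 1108 in rescued emf2 and 1167 in transWT, a 1.05-fold difference. Autophagy genes had medians of 0.94 and 0.25. XTH26 read 279 in rescued emf2 and 86.8 in transWT (at least 3.19-fold higher). TBL38 read 708 in rescued emf2 and 269.6 in transWT (2.63-fold higher). EXPB3 read 468 in rescued emf2 and 1514 in transWT (3.24-fold lower), so that these wall genes were past 2-fold in both pairs. Since 1 array stands for each group, how far rescue lowers a difference was not tested.

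**Figure D5:**
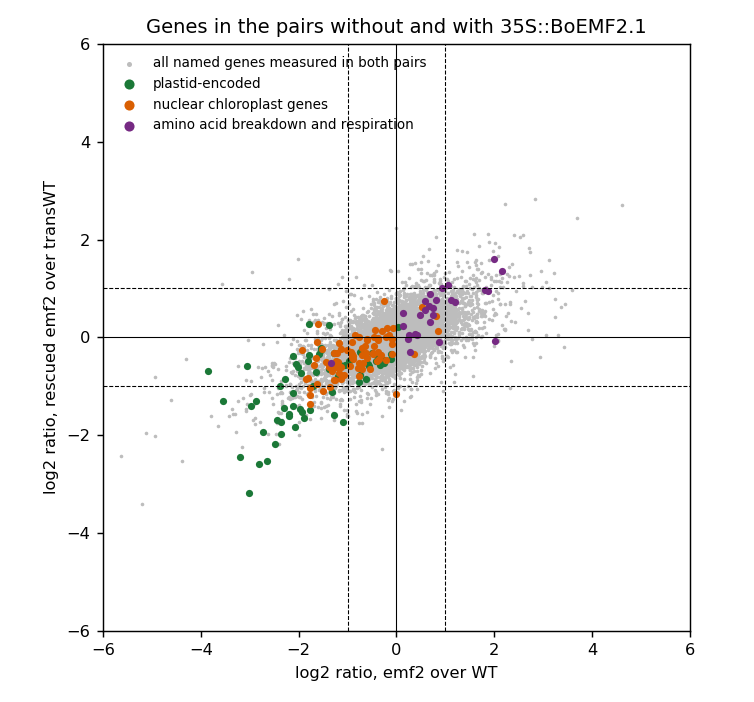
Log2 ratio of emf2 over WT (horizontal axis) against that of rescued emf2 over transWT (vertical axis) for the 7329 named genes measured in both pairs, with dashed lines at 2-fold. Genes at least 2-fold higher in emf2 had a median of 0.54 on the vertical axis and those lower a median of -0.59, and plastid-encoded genes had medians of -1.78 on the horizontal and -0.76 on the vertical axis.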

How the data were processed

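Biotin-labelled cRNA from 10 µg of total RNA per sample was hybridised to 1 array for each of 4 groups, per the labels' protocols. The deposited values are intensities on a linear scale, 22810 probe sets by 4 arrays, which the authors made with MAS5 according to GEO's record, per the submitters' processing notes, with its version and settings not given in the sources used here. MAS5 corrects with mismatch probes, so ratios between dim signals are noisy. The deposited means without the top and bottom 2% were 500.05 on both the emf2 and the WT array, so both had been scaled to one target.

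Here each array was rescaled to one 2% trimmed mean. A floor was set at the 40th percentile of the 22746 probe sets other than controls, and emf2 was divided by WT on the log2 scale with a threshold of 2-fold. With 1 array per group no test was run. The ratio step was run on simulated data with little noise and 4-fold changes in probe sets far above the floor. Bounds were not checked that way. Of the probe sets 13513 are listed with 1 gene in the platform's annotation, 503 with several and 8794 are not listed. Of the first, 13436 were matched by gene ID to current names (RefSeq, TAIR10.1), and the rest kept the platform's name. Together these gave 13350 genes, each represented by its probe set of highest mean signal. Only 1552 of them have a symbol other than the locus code.

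The 52 lists of nuclear and mitochondrial genes (810 different genes) were drawn by hand from these symbols after values had been seen, in place of name patterns that matched few genes. The members and lists were chosen with earlier results of these data known, and no list is a test. Genes were named by rule: the 20 highest and 20 lowest ratios, the 10 highest and 10 lowest bounds, all plastid genes, and in each list up to 6 members past 2-fold and 3 within it. Some other members were named after their values were seen, and the text leaves out genes that the rule names. Plastid gene clusters were also set out after values were seen. Python 3.11.15, numpy 2.4.6, pandas 2.3.3, and, for cyclic loess, limma 3.58.1 in R 4.3.3 were used. One gene family of the lists is not reported here.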

Additional observations from a re-analysis of the deposited data

Results flagged for a closer look

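Of the genes listed or named by rule, 2 were at least 2-fold apart in opposite directions in the 2 pairs of arrays. The difference between the pairs was not tested. AT5G62360 read 312 in emf2 and 3713 in WT (log2 ratio -3.57), against 737 in rescued emf2 and 345 in transWT (2.14-fold higher in rescued emf2). The other gene, scpl31, a serine carboxypeptidase-like gene, read 439 in emf2 and 68.1 in WT (log2 ratio 2.32, a bound), against 86.9 in rescued emf2 and 180.0 in transWT (at least 2.05-fold lower in rescued emf2). Of 7329 named genes measured in both pairs, 7 differed in this way. Another of these was AT1G51090, of the run of lower genes on chromosome 1. It read 81.3 in emf2 and 352 in WT (at least 4.02-fold lower). In the second pair it read 264 in rescued emf2 and 62.9 in transWT (at least 3.02-fold higher).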

How the results depend on the processing

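Of 242 reported genes at least 2-fold apart, 0 changed sign under any of the 10 alternatives, which says little. A changed floor or a pseudocount cannot reverse a sign, and over the scalings the median log2 ratio of named genes moved only between -0.03 and 0.16. With the floor at the 60th percentile the counts moved to 672 probe sets higher and 891 lower in emf2, and the plastid median to -1.38, and without a floor and with a pseudocount of 1 to 2461 higher and 3674 lower. A higher floor drops dim probe sets and also shrinks the ratios of those it clips. Over the scalings, higher counts lay between 1076 and 1602 and lower counts between 1163 and 1633. Of the 242 genes, 28 lay within 2-fold with the arrays scaled to the same median, 10 after cyclic loess, 10 and 14 after quantile normalization over 4 and over 2 arrays, and, of 229 still measured, 47 with the higher floor, psbD (log2 ratio -0.97), petL (-0.39) and ALC (0.83) among them. Among medians of gene groups 570 of 599 values moved by less than the probe set error of 0.33, and medians near 0, such as those of mitosis, UBP and exocyst genes, took either sign with the scaling. Signal near the floor limits the genes written as bounds, 1096 of 7836 measured. No paired analysis was possible because each group has 1 array.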
